A study of Mus musculus with 6 samples.

Results

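Deposited cluster 1 was the largest cluster of untreated PB3 cells, a mouse mammary tumour line. Its 6835 members were all rows with that cluster number in the authors' table of 51785 cells and nuclei, with no further selection. Of them, 5451 were untreated whole cells, 1012 were untreated nuclei and 372 came from treated samples. No expression values per gene were analysed here, so the cluster is called by its number and no cell type name was checked against markers. The name of a main untreated state held for whole cells, in which cluster 1 ranked first, but not for nuclei, in which clusters 0 and 11 were larger.

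Every condition came from PB3 cultures grown in DMEM/F12 medium and labelled with lentiviral barcodes, and every condition had 1 library or 1 hashtagged part of a library. Run 1 gave whole cells after 4 rounds of eribulin (ERI4 cells) and untreated whole cells (UNT cells). Run 2 gave whole cells after 1, 2 and 3 rounds of eribulin (ERI1, ERI2, ERI3) in 1 library and after 1, 2 and 3 rounds of paclitaxel (PAC1, PAC2, PAC3) in another, told apart by hashtag oligos. Run 3 gave nuclei after 4 rounds of eribulin (ERI4 nuclei) and untreated nuclei (UNT nuclei), measured by joint RNA and chromatin sequencing, of which the RNA values are used. Each eribulin round lasted 72 h at 500 nM and was followed by 48 h without drug. Paclitaxel was given at 100 nM for 72 h in the first round and at 250 nM in the later ones. In PAC2 and PAC3, 48 h without drug followed the first paclitaxel round. After the last round the labels mention recovery of no stated length for PAC1 and PAC3 and none for PAC2. With 1 library per condition no difference could be set against replicates, and no test is given. Shares stand with exact Clopper-Pearson 95% intervals, which cover counting error only, and a share of 0 stands with the share that 3 cells would make.

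Eribulin caps growing microtubule ends and paclitaxel locks microtubules in place, and both halt dividing cells in mitosis. A lentiviral barcode is a short designed sequence that integrates into the genome and passes to daughter cells, so cells that share a barcode are taken as 1 family. In a barcoded culture, the barcodes found in an expression cluster show which families of cells make it up, and a barcode found again after a drug shows which families were still there.

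The 6 barcodes carried by the most UNT cells of cluster 1 are printed here, since the account of its lineages turns on them. Capitals mark the 14-base first part, which many barcodes share. Lower case holds the 4-base link and the 30-base second part.
bc14-30-bc30-58918: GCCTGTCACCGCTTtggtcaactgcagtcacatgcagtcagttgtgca
bc14-22-bc30-14328: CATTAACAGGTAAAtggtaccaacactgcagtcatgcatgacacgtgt
bc14-50-bc30-60095: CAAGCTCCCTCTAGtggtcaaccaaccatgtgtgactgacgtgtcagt
bc14-55-bc30-68976: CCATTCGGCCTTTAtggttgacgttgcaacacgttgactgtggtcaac
bc14-52-bc30-92557: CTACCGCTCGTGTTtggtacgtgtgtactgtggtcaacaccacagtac
bc14-21-bc30-28628: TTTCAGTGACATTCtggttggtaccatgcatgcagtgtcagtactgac

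A further 4 barcodes are printed because they made up 95.4% of all barcoded ERI4 cells, and most of their few UNT cells lay in cluster 1. The capitals mark the same first part.
bc14-55-bc30-23349: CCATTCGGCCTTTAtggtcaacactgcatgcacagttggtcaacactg
bc14-95-bc30-33662: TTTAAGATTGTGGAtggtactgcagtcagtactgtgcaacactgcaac
bc14-6-bc30-93034: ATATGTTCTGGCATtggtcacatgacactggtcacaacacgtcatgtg
bc14-76-bc30-49517: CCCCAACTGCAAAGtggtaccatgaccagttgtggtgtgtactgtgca

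Barcodes bc14-55-bc30-68976 and bc14-55-bc30-23349 carry the same first part and differ only in the second. Among the 28 barcodes for which values were computed one by one, every pair differed at 12 or more of the 30 second-part bases. The 426 barcodes called in UNT cells of cluster 1 used 82 different first parts, against 86 over all UNT cells.

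Libraries of a run shared some cell barcodes. The ERI4 and UNT cell libraries shared 26, which included 14 UNT members of cluster 1 and no ERI4 member. The nuclei libraries shared 134, with 1 of 12 ERI4 members and 19 of 1012 UNT members, and the run 2 libraries shared 16, with 1 member. No shared cell barcode belonged to cluster 1 in both libraries. Without the shared ones cluster 1 still held 49.3% of UNT cells and 10.2% of UNT nuclei.

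Cluster 1 was a state of untreated whole cells and was nearly empty after 4 rounds of eribulin. It held 48 of 9331 ERI4 cells, 0.514% (0.380 to 0.681), against 5451 of 11061 UNT cells, 49.3% (48.3 to 50.2). In nuclei it held 12 of 8711 ERI4 nuclei, 0.138% (0.0712 to 0.241), against 1012 of 9916 UNT nuclei, 10.2% (9.62 to 10.8). The intervals did not overlap within either run. Among treated samples PAC1 stood highest, with 213 of 2928 cells, 7.27% (6.36 to 8.28). The other run 2 conditions were far lower: 1.23% (0.783 to 1.84) of ERI1, 0.159% (0.0193 to 0.574) of ERI2, 1.04% (0.713 to 1.47) of ERI3, 0.590% (0.192 to 1.37) of PAC2 and 1.33% (0.935 to 1.82) of PAC3. After 1 round the paclitaxel share lay above the eribulin share, while after 3 rounds the intervals of both drugs overlapped. Drug, dose and library cannot be told apart in run 2, which also has no untreated library.

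**Figure D1:**
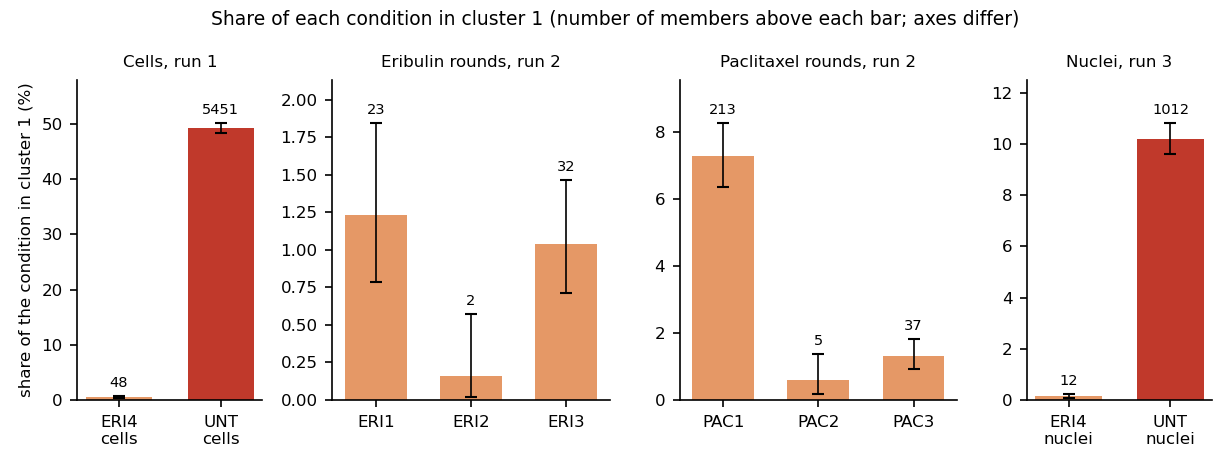
Share of each condition in cluster 1, in percent, with exact 95% intervals as error bars and the number of members above each bar. The 4 panels have their own vertical axes. UNT cells stand at 49.3% and UNT nuclei at 10.2%, while every treated condition lies at 7.27% or below.

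On the deposited map, members of the cluster from different assays lay in different places. UNT cells of cluster 1 had a median position of -2.02 on UMAP 1 and -6.59 on UMAP 2. UNT nuclei of the cluster lay at 6.24 and -2.32, and PAC1 members at -2.87 and -1.60. Of the 30 nearest map neighbours of a UNT cell of cluster 1, a mean of 80.02% were in cluster 1, 8.84% in cluster 6 and 6.86% in cluster 5, and 98.4% were UNT cells. More than 50% of the neighbours were of cluster 1 for 4814 of the 5451 cells. For the nuclei, 16.3% of neighbours were in cluster 1 and 65.003% in cluster 0, the largest cluster of UNT nuclei. Only 1 of the 1012 nuclei had a majority of cluster 1 neighbours. UNT nuclei given to clusters 5 and 6 were surrounded in the same way, with 60.3% and 63.1% of neighbours in cluster 0.

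Treated members were spread over several places. PAC1 members had 61.4% of their neighbours among PAC1 cells and 4.27% among UNT cells, and 35.0% of the neighbours were of cluster 6 against 21.6% of cluster 1. For ERI1 members, 51.0% of neighbours were of cluster 7. ERI4 cells of the cluster came nearest to the untreated place, with 55.4% of neighbours among UNT cells and 52.1% in cluster 1. The cluster number thus grouped cells and nuclei that the map kept apart, and values of cells and nuclei are given apart.

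**Figure D2:**
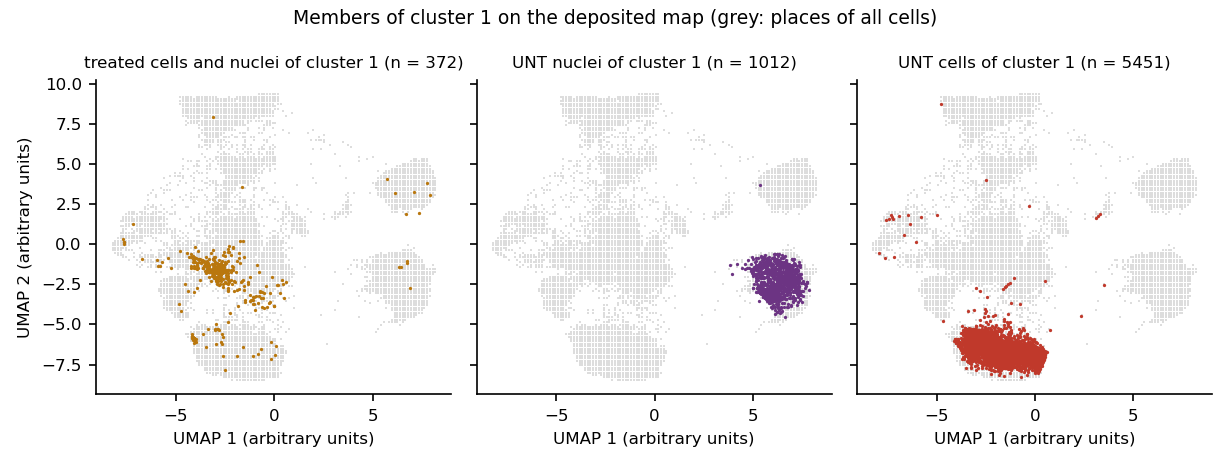
Members of cluster 1 on the deposited UMAP, in arbitrary units on both axes, from treated samples (372), UNT nuclei (1012) and UNT cells (5451). Grey marks every place that holds a cell of any cluster. UNT cells lie at the bottom, around -6.59 on UMAP 2, UNT nuclei at the right, around 6.24 on UMAP 1, and PAC1 members, the most frequent treated ones, around -1.60 on UMAP 2.

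In UNT cells the cluster was deeper than its neighbours. The median was 21559 UMIs (counted RNA molecules) per cell in cluster 1, against 16038.5 in cluster 5 and 17801 in cluster 6, the other large clusters of UNT cells. Median genes per cell were 4255 in cluster 1, 3724 in cluster 5 and 3869 in cluster 6. The median share of UMIs in mitochondrial genes, which is often raised in damaged cells, was 4.05% in cluster 1, 4.12% in cluster 5 and 4.05% in cluster 6. The middle 80% of cluster 1 cells ran between 3.27% and 5.00% mitochondrial UMIs.

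Over all cells the phases of cluster 1 were near those of its neighbours. In a common range of UMIs fewer of its cells were called G2M. Phase was read from the deposited S and G2M scores, as G1 where both were 0 or lower and otherwise as the higher. S was called for 32.4% of cluster 1 cells (31.2 to 33.7), 31.9% of those of cluster 5 and 31.2% of those of cluster 6. G2M was called for 38.9% of cluster 1 (37.6 to 40.3), for 41.6% of cluster 5 (39.9 to 43.3) and for 43.4% of cluster 6 (41.0 to 45.9), and the intervals of clusters 1 and 6 did not overlap. Depth moved with phase: within cluster 1 the median was 17166 UMIs in G1, 22457 in S and 24935 in G2M. Among cells of 11987 to 29217.5 UMIs, the range common to the 3 clusters, 32.0% of cluster 1 cells were G2M (30.4 to 33.6), against 40.8% of cluster 5 (38.8 to 42.8) and 40.7% of cluster 6 (37.9 to 43.6). In that range the G1 share was 31.9% in cluster 1, 23.4% in cluster 5 and 25.5% in cluster 6. The range does not make depth alike, with medians of 19548 UMIs in cluster 1, 16422 in cluster 5 and 17289.5 in cluster 6. Its upper bound is the 90th percentile of cluster 5. It leaves out the 1363 deepest cells of cluster 1, of which 61.5% were G2M. The part of this cut in the lower G2M share was not tested. Depth and free RNA can also enter phase calls, which are not read here as division rates. Free RNA was not measured here.

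Pseudotime, the authors' distance along a path rooted in untreated cells, placed cluster 1 between its neighbours. Median pseudotime was 8.13 in cluster 1 and 2.46 in cluster 5, a difference of 5.66, and the cluster 1 cell was higher in 97.7% of pairs. It was 9.59 in cluster 6, so that cluster 1 minus cluster 6 was -1.47, and the cluster 1 cell was higher in 33.8% of pairs. Among cells called G1 the difference from cluster 6 was -0.51, while that from cluster 5 was 5.94. Clusters and pseudotime come from the same expression values, so these are descriptions.

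Inside cluster 1, pseudotime had 2 peaks. Of its UNT cells, 26.2% lay between 7 and 8, 11.4% between 8 and 9, and 23.4% between 10 and 11. Cells at 10 or above made up 25.995% (24.8 to 27.2) of the cluster, a limit set after the values were seen. They made up 30.1% (27.8 to 32.5) of cells called G1, 29.7% (27.6 to 31.9) of those called S and 19.9% (18.2 to 21.6) of those called G2M. The cells at 10 or above had a median of 21995 UMIs and 4.03% mitochondrial UMIs, and those below had 21472 and 4.05%. Many cells shared 1 value: the 10 most frequent values, taken to 4 decimals, held 25.6% of the cells, and the most frequent, 10.7626, held 316. Of the 1417 cells at 10 or above, a further 191 had 10.6743, 159 had 10.8989, 99 had 10.0875 and 73 had 10.0415. Ties thus make up much of the upper peak. Pseudotime within the cluster is therefore partly a set of steps.

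**Figure D3:**
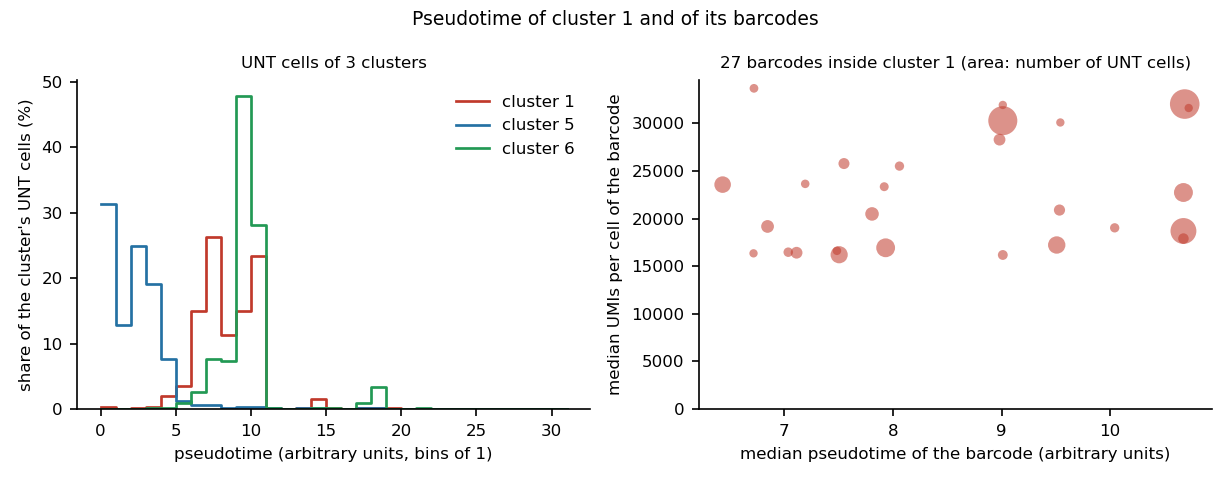
Left, share of the UNT cells of clusters 1, 5 and 6 in pseudotime bins of width 1 (arbitrary units). Right, median pseudotime and median UMIs of the 27 barcodes with at least 20 UNT cells in cluster 1, with area in proportion to cells. Cluster 1 has 2 peaks, at 7 to 8 and at 10 to 11, and the medians of its barcodes run between 6.43 and 10.7.

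A barcode could be called in more cells of cluster 1 than of its neighbours. A single barcode was called in 2984 of the 5451 UNT cells, 54.7% (53.4 to 56.1), against 40.1% of cluster 5 (38.5 to 41.8) and 33.8% of cluster 6 (31.4 to 36.1). No barcode was detected in 25.8% of cluster 1 cells (24.6 to 27.0), 39.7% of cluster 5 cells (38.1 to 41.4) and 50.8% of cluster 6 cells (48.4 to 53.3). Depth moved with detection: no barcode was detected in 49.7% of the 1363 shallowest cluster 1 cells and in 6.68% of the 1363 deepest. In the common range of UMIs a barcode was called in 55.2% of cluster 1 cells (53.6 to 56.9), 43.4% of cluster 5 cells (41.5 to 45.4) and 30.9% of cluster 6 cells (28.2 to 33.6). The calls Doublet and Multiplet together covered 8.07% of the shallowest and 23.7% of the deepest of them.

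Of these 3 clusters, cluster 1 also held the most different barcodes. In it 426 barcodes were called, against 148 in cluster 5 and 117 in cluster 6. Called in 1 cell only were 49.1% of these barcodes in cluster 1, 40.5% in cluster 5 and 56.4% in cluster 6. In draws of 537 barcoded cells, the size of cluster 6, the expected number of different barcodes was 175 in cluster 1, 101.1 in cluster 5 and 117 in cluster 6. The 10 most frequent barcodes held 41.7% of the barcoded cells of cluster 1 (39.9 to 43.5), 48.3% of those of cluster 5 and 62.0% of those of cluster 6. In UNT nuclei the order of cluster 1 over clusters 5 and 6 was the same, with 99.1 different barcodes in draws of 161, against 82.8 and 74. Barcodes are not a count of lineages, because 66.8% of cluster 1 UNT cells had 2 or more detected barcodes.

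Most of the frequent barcodes lay nearly wholly inside or nearly wholly outside cluster 1. A barcode is called led by a cluster where at least 80% of its barcoded UNT cells were in it, with at least 20 such cells. Of 59 barcodes with at least 20 cells, 22 were led by cluster 1, which is 37.3%, 20 were led by cluster 5, which is 33.9%, and 2 by cluster 6, which is 3.39%. A further 15 were led by none. With only cells of exactly 1 detected barcode, 7 barcodes had at least 20 cells and 85.7% of them were led by cluster 1. Counted by their cluster 1 share, 22 barcodes had 80% or more there, 24 had 20% or less, and 13 lay between. For a barcoded cell of cluster 1, 91.0% of the other cells with its barcode were also in cluster 1, which held 58.7% of barcoded UNT cells. The same value was 82.6% for cluster 5, which held 26.3% of barcoded cells, and 58.6% for cluster 6, which held 10.6%. Per the series' design text the clusters were made from variable genes.

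The 6 most frequent barcodes of the cluster had 91% or more of their cells in it. Barcode bc14-30-bc30-58918 had 252 of its 262 UNT cells in cluster 1, 96.2% (93.1 to 98.2), and bc14-22-bc30-14328 had 243 of 250, 97.2% (94.3 to 98.9). Barcode bc14-50-bc30-60095 had 193 of 205, 94.1% (89.9981 to 96.9), and bc14-55-bc30-68976 had 103 of 112, 92.0% (85.3 to 96.3). Barcode bc14-52-bc30-92557 had 102 of 105, 97.1% (91.9 to 99.4), and bc14-21-bc30-28628 had 87 of 90, 96.7% (90.6 to 99.3). Among the other barcodes with at least 20 cells, bc14-5-bc30-59042 had all 20 of its cells there and bc14-61-bc30-88872 had 40 of 41. A barcode could also straddle 2 clusters: bc14-14-bc30-67938, named here after its values were seen, had 32 of its 91 cells in cluster 1 and 51 in cluster 6, and bc14-40-bc30-47831, chosen likewise, had 40 of 60 in cluster 1 and 18 in cluster 5.

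Within cluster 1, depth and pseudotime varied with the barcode. Over the 27 barcodes with at least 20 cells in the cluster, 1698 cells in all, 36.7% of the sum of squares of pseudotime lay between barcodes and 8.204% between phases. For UMIs the values were 28.7% between barcodes and 15.3% between phases. For the S score 1.96% lay between barcodes and for the G2M score 4.14%. Phase was cut from these 2 scores, which fixes a large share between phases, so that share is not given for them. The first map axis went with phase, with 57.8% between phases and 4.51% between barcodes. On the map, 5.45% of the 30 nearest barcoded cells of the cluster carried the same barcode, against 2.55% of all pairs, a ratio of 2.14. That ratio was 1.15 in cluster 5 and 1.59 in cluster 6.

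The upper peak of pseudotime was filled by some barcodes and nearly avoided by others. Of the cells of bc14-30-bc30-58918 in cluster 1, 197 of 252 lay at 10 or above, 78.2% (72.6 to 83.1). For bc14-55-bc30-68976 it was 69.9% (60.1 to 78.5) and for bc14-50-bc30-60095 it was 64.8% (57.6 to 71.5). Barcode bc14-22-bc30-14328 had 25.5% (20.2 to 31.5) there and bc14-52-bc30-92557 had 7.84% (3.45 to 14.9). At the other end, none of 79 cells of bc14-69-bc30-89668, which was picked for this, lay at 10 or above, where the 3 cells of the limit would make 3.80%. Of the 27 barcodes, 6 had 50% or more of their cells in the upper range and 15 had 20% or less.

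Depth differed between barcodes as well. Median UMIs per barcode ran between 16183 and 33681.5. Among the barcodes at a median pseudotime of 10.7, bc14-30-bc30-58918 had a median of 32030.5 UMIs and bc14-50-bc30-60095 had 18701, so high pseudotime did not go with 1 depth. Cells called G2M made up 50.4% of bc14-30-bc30-58918 and 34.7% of bc14-50-bc30-60095. The part of depth or of detection in these values was not tested.

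The same barcodes marked the cluster in nuclei, a library that played no part in choosing them. UNT nuclei were called with 21 of the 22 barcodes led by cluster 1 in UNT cells, and 17.3% (15.2 to 19.7) of these 1113 nuclei lay in cluster 1. For barcodes led by cluster 5 it was 2.54% of 905 nuclei, and for those led by cluster 6 it was 4.20% of 119. The largest part, 71.1% (68.3 to 73.7), lay in cluster 0, as did 68.3% of nuclei with cluster 5 barcodes. Nuclei with cluster 5 barcodes were in cluster 5 for 11.05% (9.08 to 13.3) and those with cluster 6 barcodes in cluster 6 for 26.9% (19.2 to 35.8). So 36.3% (32.2 to 40.5) of barcoded cluster 1 nuclei had a barcode led by cluster 1 in cells, against 22.6% (21.4 to 23.7) of all barcoded UNT nuclei.

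Across barcodes led by different clusters, the shares in both libraries went together without being equal. Over the 46 barcodes with at least 20 UNT cells and 20 UNT nuclei, the cluster 1 shares in nuclei and in cells had a Pearson r of 0.817 and a Spearman rho of 0.78. These points share 2 libraries and 1 clustering, and the value is a description. For the 15 of them led by cluster 1 the share of nuclei in cluster 1 had a median of 18.3% and ran between 9.0% and 33.7%, while for the 18 led by cluster 5 the median was 1.68% and the highest 8.70%. The ranges did not overlap. Inside the group led by cluster 1 the order was not always kept. Barcode bc14-61-bc30-88872 had 97.6% of its UNT cells and 9.52% of its nuclei in cluster 1, and bc14-55-bc30-6980 had 91.4% and 33.7%. How the shares went together within the 15 barcodes was not computed.

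The barcodes with the most cluster 1 nuclei were bc14-55-bc30-6980, bc14-50-bc30-60095 and bc14-22-bc30-14328. Barcode bc14-55-bc30-6980 had 28 of its 83 nuclei in cluster 1, 33.7% (23.7 to 44.9), and 85 of its 93 UNT cells. Barcode bc14-22-bc30-14328 had 19 of 185 nuclei there, 10.3% (6.30 to 15.6), and bc14-30-bc30-58918 had 9 of 100, 9.0% (4.20 to 16.4), with 88 in cluster 0. Both had more than 96% of their UNT cells in cluster 1 and are among the 3 of the 15 barcodes with the lowest shares of nuclei there. The nuclei of cluster 1 had a median of 2812 UMIs, against 4024 in cluster 0, and a median pseudotime of 10.7 against 14.2. Their median mitochondrial share was 9.70%, against 4.05% in UNT cells of the cluster.

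**Figure D4:**
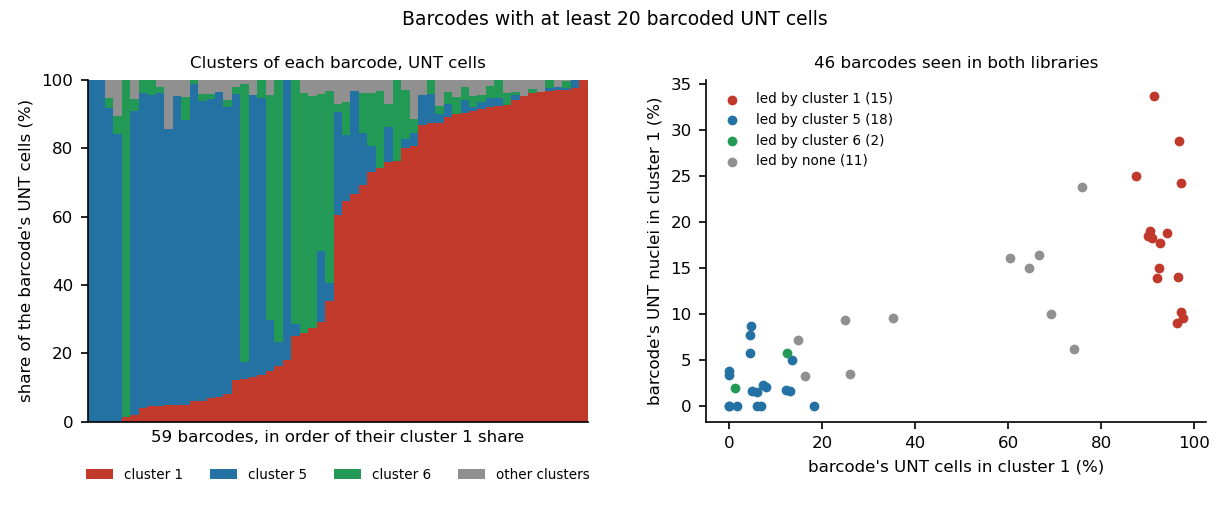
Left, the 59 barcodes with at least 20 barcoded UNT cells, 1 bar each, split by cluster and ordered by their cluster 1 share in percent. Right, the share of each barcode in cluster 1 in UNT nuclei against that in UNT cells, both in percent, for the 46 barcodes with at least 20 of each, coloured by leading cluster. Barcodes led by cluster 1 lie between 9.0% and 33.7% in nuclei, above all of those led by cluster 5.

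Barcodes led by cluster 1 were found again after drug, mostly in other clusters. Of barcoded ERI1 cells, 17.0% (15.0005 to 19.1) carried 1 of 13 of the 22 barcodes, and 92.2% of those cells lay in cluster 7. Cluster 7 held 90.7% of all ERI1 cells, and 91.4% and 95.2% of those with barcodes led by clusters 5 and 6. Barcode bc14-21-bc30-28628 supplied 100 of the 230 cells with a barcode led by cluster 1. In ERI2 the share was 2.15% (1.302 to 3.34) and in ERI3 0.451% (0.217 to 0.829). In PAC1 it was 5.41% (4.41 to 6.56), with 35.1% (25.6 to 45.4) of these 97 cells in cluster 6 and 28.9% (20.1 to 39.0) in cluster 1. Of all PAC1 cells, 41.5% were in cluster 6 and 7.27% in cluster 1. In PAC2 the share with a barcode led by cluster 1 was 3.16% (1.89 to 4.95) and in PAC3 0.481% (0.240 to 0.859). The shares with a barcode led by cluster 1 stand beside 32.5% (31.2 to 33.8) of barcoded UNT cells. Those cells came from another run, and the barcodes were chosen in them.

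After 4 rounds of eribulin none was found in whole cells. Barcodes led by cluster 1 were called in 0 of 6725 barcoded ERI4 cells, where 3 cells would make 0.0446%, against 32.5% of barcoded UNT cells of the same run. The level in UNT cells is set in part by the choice, which took barcodes with at least 20 cells in that library. Nuclei played no part in that choice. These barcodes were called in 3 of 1495 barcoded ERI4 nuclei, 0.201% (0.0414 to 0.585), against 22.6% (21.4 to 23.7) of barcoded UNT nuclei. Barcodes led by clusters 5 and 6 were also called in 0 of the 6725 ERI4 cells. In ERI4 nuclei those led by cluster 5 were called in 19 of 1495, 1.27% (0.767 to 1.98), and those led by cluster 6 in 1, 0.0669%, so the intervals of clusters 1 and 5 did not overlap in nuclei. After 2 rounds, barcodes led by cluster 1 made up 2.15% of ERI2, against 28.8% (25.8 to 31.9) for those of cluster 5. In PAC2 the order was the other way but the intervals overlapped. There, barcodes led by cluster 1 made up 18 of 569 barcoded cells, 3.16% (1.89 to 4.95). Those led by cluster 5 made up 6, 1.05% (0.388 to 2.28). These values cover only barcodes with at least 20 UNT cells and leave out the rare ones.

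The barcodes that filled the library of ERI4 cells were rare in UNT cells, and their few UNT cells lay mostly in cluster 1. The 4 most frequent barcodes of ERI4 cells, whose number was set after the values were seen, were carried by 43 UNT cells, of which 35 lay in cluster 1, 81.4% (66.6 to 91.6), 3 in cluster 6 and 0 in cluster 5. Cluster 1 held 58.7% of all barcoded UNT cells. The interval of 66.6 to 91.6 counts each cell by itself, though the 43 cells came from 4 barcodes. Cells of 1 barcode mostly lay in the same cluster, so for barcodes this interval is too narrow. Barcode bc14-55-bc30-23349 had 10 of 14 UNT cells in cluster 1 and 4597 ERI4 cells, of which 1 was in cluster 1. Barcode bc14-95-bc30-33662 had 7 of 8 there and 719 ERI4 cells. Barcode bc14-6-bc30-93034 had 14 of 15 and 667 ERI4 cells, and bc14-76-bc30-49517 had 4 of 6 and 432 ERI4 cells. In ERI4 cells these 4 barcodes lay mainly in cluster 3, cluster 8, cluster 8 and cluster 2 in that order. None of the 43 UNT cells had a cell barcode that was also in the ERI4 library.

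ERI4 nuclei carried the same 4 barcodes in another order. Together they were called in 1216 of 1495 barcoded ERI4 nuclei, 81.3% (79.3 to 83.3), against 95.4% of barcoded ERI4 cells. Barcode bc14-76-bc30-49517 was called in 452 of these nuclei, 30.2% (27.9 to 32.6), and bc14-6-bc30-93034 in 425, 28.4% (26.2 to 30.8). Barcode bc14-95-bc30-33662 followed with 188, 12.6% (10.9 to 14.4). Barcode bc14-55-bc30-23349, which made up 68.4% of ERI4 cells, was called in 151 nuclei, 10.1% (8.62 to 11.7).

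A high cluster 1 share in UNT cells was not shared by every barcode found again in ERI4 cells. Barcode bc14-39-bc30-41529, also named after its values were seen and the fifth in rank with 113 ERI4 cells, had 12 of its 16 UNT cells in cluster 5 and 2 in cluster 1. Over all 11 barcodes called in both libraries, 47 of 104 UNT cells, 45.2% (35.4 to 55.3), were in cluster 1 and 43 in cluster 5. Of these 43, 16 carried bc14-55-bc30-99383 and 14 carried bc14-1-bc30-96229, both named after their values were seen. These barcodes had only 3 ERI4 cells and 1 ERI4 cell in that order. Among the 6 of the 11 barcodes with at least 20 ERI4 cells, 39 of 62 UNT cells, 62.9% (49.7 to 74.8), were in cluster 1 and 12 in cluster 5. Counted from the untreated side, 47 of the 2984 barcoded cluster 1 cells, 1.58% (1.16 to 2.09), had a barcode called in ERI4 cells, against 43 of 1336 in cluster 5, 3.22% (2.34 to 4.31). Those 47 cells carried 11 barcodes, which is 2.58% of the 426 barcodes of the cluster and 68.8% of the 16 barcodes of ERI4 cells. Of the 148 barcodes of cluster 5, 4 were called in ERI4 cells, 2.70%, and of the 117 of cluster 6, 5 were, 4.27%. By barcodes, clusters 1 and 5 thus stood close. It is a barcode and not a cell that is found again, so the intervals of the cell shares are too narrow. The 426 were most of the 506 barcodes of UNT cells, and 1 cell in cluster 1 was enough to be counted. The 11 were thus all the barcodes called in both libraries, including those found mostly in cluster 5. The 11 barcodes were carried by 98.4% of barcoded ERI4 cells.

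The cluster 1 UNT cells of the 4 most frequent ERI4 barcodes had median pseudotimes between 7.12 and 10.04, the bounds of the middle 50% of cluster 1. The cluster 1 UNT cells of bc14-55-bc30-23349 had a median pseudotime of 8.49, those of bc14-95-bc30-33662 had 9.01, those of bc14-6-bc30-93034 had 9.07 and those of bc14-76-bc30-49517 had 8.37, against 8.13 in the whole cluster. Over the 35 cells pseudotime ran between 6.19 and 16.6. The high cluster 1 share of these 4 barcodes in UNT cells was not seen in UNT nuclei. In UNT cells it depended on where the list was cut. Over all 11 barcodes called in both UNT and ERI4 cells it was 45.2%, below the 58.7% of all barcoded UNT cells. That list takes in barcodes with only 1 ERI4 cell. The same 4 barcodes were called in 39 UNT nuclei, of which 4 lay in cluster 1, 10.3% (2.87 to 24.2), and 24 in cluster 0. Cluster 1 held 10.8% (9.93 to 11.7) of all barcoded UNT nuclei. All 4 of the cluster 1 nuclei carried bc14-55-bc30-23349, which was called in 19 nuclei with 11 in cluster 0. None of the 6 nuclei of bc14-95-bc30-33662, the 12 of bc14-6-bc30-93034 and the 2 of bc14-76-bc30-49517 lay in cluster 1, and 5, 6 and 2 of them in that order lay in cluster 0.

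In run 2 some of these barcodes were frequent too, and most of their cells lay outside cluster 1. Barcode bc14-76-bc30-49517, with 4 of 6 UNT cells in cluster 1, made up 37.9% of ERI3 and 48.9% of PAC3, and 3 of its 839 ERI3 cells and 3 of its 1118 PAC3 cells lay in cluster 1. Barcode bc14-6-bc30-93034 made up 25.01% of ERI3 and 7.22% of PAC3. It had 4 of 554 ERI3 cells in cluster 1, 0.722% (0.197 to 1.84), against 23 of 165 PAC3 cells, 13.9% (9.05 to 20.2).

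Counted over all barcodes, those of cluster 1 were found again in run 2 to an extent that changed with round and drug. Of barcoded cluster 1 UNT cells, 49.9% (48.1 to 51.7) had a barcode also called in ERI1, 36.4% (34.7 to 38.2) one called in ERI2 and 17.0% (15.6 to 18.4) one called in ERI3. For cluster 5 the values were 68.0% for ERI1, 45.7% for ERI2 and 51.6% (48.9 to 54.4) for ERI3, all above those of cluster 1. For cluster 6 they were 65.5% for ERI1, 9.50% for ERI2 and 26.8% for ERI3, so that only the ERI2 value lay below that of cluster 1. With paclitaxel they were 58.8% for PAC1, 32.2% for PAC2 and 20.8% (19.4 to 22.3) for PAC3 in cluster 1. For cluster 5 they were 53.1% for PAC1, 28.8% for PAC2 and 18.2% (16.2 to 20.4) for PAC3, each below cluster 1. The intervals of clusters 1 and 5 overlapped for PAC2 and PAC3. For cluster 6 the shares were 74.5% for PAC1, 54.7% for PAC2 and 42.5% (38.2 to 46.8) for PAC3, each above cluster 1. It is a barcode and not a cell that is found again, so these intervals are too narrow. By barcodes, cluster 1 lay below clusters 5 and 6 in every run 2 condition. In PAC1 22.1% of its 426 barcodes were called, against 28.4% for cluster 5 and 41.0% for cluster 6. In PAC3 it was 8.69%, 12.2% and 20.5% in that order, and in ERI2 12.2%, 21.6% and 22.2%. The part of rare barcodes in these values was not tested. The run 2 conditions had between 569 barcoded cells in PAC2 and 2286 in PAC3, and the part of that number was not tested either.

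Looked at from the treated side, the untreated place of the barcodes depended on how many treated cells a barcode had to have. The 7 barcodes with at least 20 ERI2 cells that were found in UNT cells had 18 of 292 UNT cells in cluster 1, 6.16% (3.69 to 9.57), and 89.0% in cluster 5. The 5 such barcodes of ERI3 had 37 of 59 in cluster 1, 62.7% (49.1 to 74.956). The 8 such barcodes of PAC3 had 29 of 108 in cluster 1, 26.9% (18.8 to 36.2), and 62.0% in cluster 6. At this limit the cluster 1 share was lower for ERI2 than for ERI3, which came from 1 library. The order was not the same at other limits. Over the barcodes with at least 3 treated cells it was 35.0% (31.7 to 38.5) for ERI2 and 44.5% (40.9 to 48.2) for ERI3. Over all barcodes the ERI2 share was the higher, at 60.1% (57.8 to 62.3) for ERI2 and 36.4% (33.9 to 39.0) for ERI3.

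**Figure D5:**
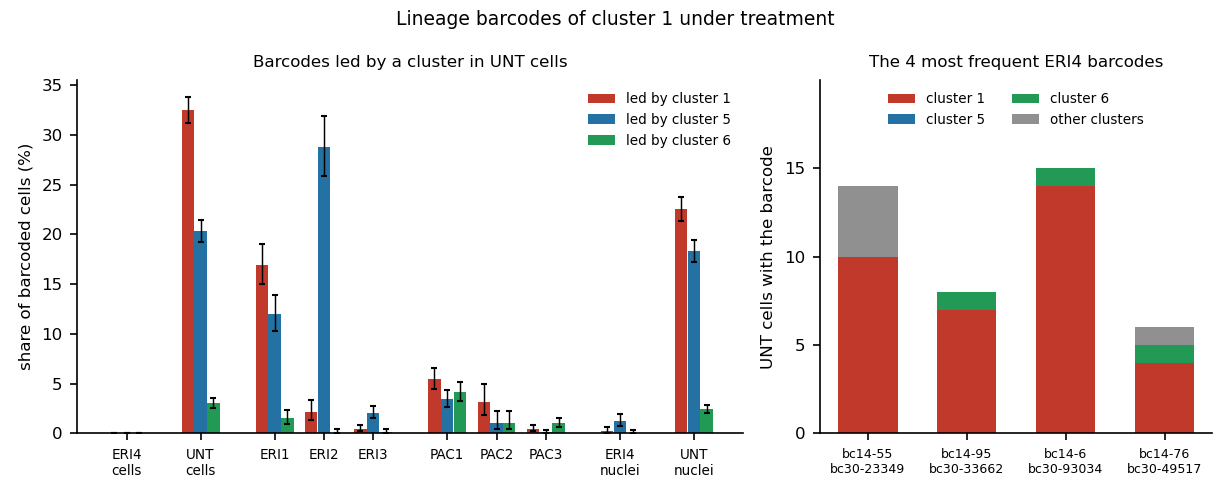
Left, share of barcoded cells of each condition that carry a barcode led by cluster 1, 5 or 6 in UNT cells, in percent with exact 95% intervals. Right, number of UNT cells with each of the 4 most frequent ERI4 barcodes, split by cluster. Barcodes led by cluster 1, chosen for being frequent in UNT cells, stand at 0 in ERI4 cells and 32.5% in UNT cells. The 4 ERI4 barcodes, a number set after the values were seen, had 35 of 43 UNT cells in cluster 1. All 11 barcodes called in both UNT and ERI4 cells had 47 of 104 there.

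A few barcodes, named here after their values were seen, supplied many of the treated members of cluster 1. In PAC1, 28 of the 158 barcoded members carried bc14-36-bc30-56638 and 24 carried bc14-6-bc30-93034. Barcode bc14-36-bc30-56638 had 17 of its 18 UNT cells in cluster 1 and 28 of its 54 PAC1 cells, 51.9% (37.8 to 65.7). It also supplied 10 of the 19 barcoded ERI1 members, although 77.4% of its 53 ERI1 cells lay in cluster 7. In PAC3, 23 of the 31 barcoded members carried bc14-6-bc30-93034. In ERI3, 9 of the 27 barcoded members carried bc14-55-bc30-98358, a barcode not called in any of 5087 barcoded UNT cells, where 3 cells would make 0.0590%. Barcodes led by cluster 1 in UNT cells supplied 28 of the 158 PAC1 members, 17.7% (12.1 to 24.6), 1 of the 31 PAC3 members and 0 of the 27 ERI3 members, where 3 cells would make 11.1%.

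Many of the ERI4 cells given to cluster 1 were shallow. Of the 48, 23 had under 5000 UMIs, 47.9% (33.3 to 62.8), against 93 of 5451 UNT cells of the cluster, 1.71% (1.38 to 2.09), and 314 of all 9331 ERI4 cells, 3.37% (3.01 to 3.75). None of the 23 had a called barcode, and their median pseudotime was 14.8. Among the other 25, UMIs had a median of 22406 and pseudotime one of 10.7, and 23 of them had a called barcode, of which 10 carried bc14-95-bc30-33662. The shallow UNT cells of the cluster also stood high, with a median pseudotime of 14.8 and 0 of 93 with a called barcode. The limit of 5000 UMIs was chosen after the values were seen. None of the 48 carried a barcode led by cluster 1, where 3 cells would make 13.0% of the 23 barcoded ones.

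Members from PAC1, PAC3 and ERI3 had fewer UMIs than those from UNT cells, while the few members from the other run 2 conditions did not separate from them. PAC1 members had a median of 11715 UMIs and a pseudotime of 11.7, PAC3 members 11429 and 11.4, and ERI3 members 12400 and 10.7, against 21559 and 8.13 in UNT cells. The lower depth was that of the whole conditions. Over all their cells, median UMIs by phase ran between 10200.5 and 13215 in PAC1, 10827 and 14642 in PAC3, and 9560 and 13173 in ERI3. ERI1 members had a median of 19922 UMIs, with an interval of the median between 17350 and 26670 that holds the UNT value, and a pseudotime of 13.7. The 5 PAC2 members had a median of 17315 UMIs and the 2 ERI2 members one of 25041.5, with pseudotimes of 13.7 and 15.6 in that order. S made up 30.0% (24.0 to 36.7) and G2M 42.7% (36.0 to 49.7) of the 213 PAC1 members. Over all PAC1 cells S made up 23.7% (22.2 to 25.3).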

How the data were processed

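Count matrices were made with Cell Ranger 3.1.0 (run 1), Cell Ranger 4.0.0 (run 2) and Cell Ranger ARC 1.0.0 (run 3) on the mm10 reference, as stated in the series' design text. The same text names Seurat 3.1.4 for clusters and UMAP and Monocle3 0.2.1 for pseudotime, with untreated cells as the root. The deposited counts are UMIs, genes and barcodes per cell, not normalized. The deposited percent is the mitochondrial share of UMIs. The deposited scores are S and G2M phase scores (of cells only), pseudotime and map positions, on arbitrary scales. No member fell outside the stated filter of at least 200 genes and at most 50% mitochondrial UMIs.

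Members were the cells of cluster 1, and the condition was read from the deposited names. The latest deposited barcode call was used. Every nucleus had at least 1 barcode feature, and 1 was subtracted there. Of the cell table, 23 columns were not used. No doublet caller was run: doublets were treated only through the deposited calls. Neighbours were the 30 nearest in the map. Equal draws were computed exactly. Scripts used Python 3.11.15, pandas 2.3.3, SciPy 1.17.1 and matplotlib 3.10.9, and the computations were checked on simulated data. The number of cells behind each share sets its precision, and intervals cover counting error only. Cells of 1 barcode were counted separately, so intervals that rest on few barcodes are too narrow.

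The members, the lists and the limits were chosen with earlier results of these data known. Barcodes were named by rule: the 6 with the most cluster 1 UNT cells, the 2 with the highest cluster 1 share among others with at least 20 cells, the 3 most frequent in ERI4 cells and the 2 most frequent in ERI3 and in PAC3 among barcodes of cluster 1 UNT cells, and the 3 with the most cluster 1 UNT nuclei. Other barcodes are said to have been named after their values were seen. Alternatives were cell filters, a common range of UMIs, other phase limits, numbers of neighbours, barcode calls and limits for a led barcode.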

Additional observations from a re-analysis of the deposited data

Results flagged for a closer look

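Changes within cluster 1 were compared between cells and nuclei (ERI4 minus UNT) and between the drugs (round 3 minus round 1), 16 comparisons in all, each with 1 library per condition. In 1 of them both changes went opposite ways. The median mitochondrial share of the members was 2.95% in ERI3 and 2.48% in ERI1, a change of 0.466 percentage points, while it was 2.63% in PAC3 and 2.87% in PAC1, a change of -0.238. The difference was not tested, and it rests on 32 ERI3, 23 ERI1, 37 PAC3 and 213 PAC1 cells.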

How the results depend on the processing

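Of 48 values recomputed for 12 results, 36 stayed within the limit set. That limit was the counting interval of the reported value or, for the count of barcodes, 1.5 times of it. Only the pseudotime differences could change sign, and none did. Nuclei with a called barcode hold no Doublet or Multiplet call. Leaving those calls out thus could not change the 17.3% of nuclei with barcodes led by cluster 1. In the common range of UMIs, cluster 1 held 46.6% of UNT cells, its S share was 36.1%, its G2M share 32.0%, its median mitochondrial share 4.07%, and its pseudotime minus that of cluster 5 was 5.96. Without Doublet and Multiplet calls the pseudotime differences were 5.88 from cluster 5 and -1.28 from cluster 6, and among cells called G1 they were 5.94 and -0.51. With a score limit of 0.05 the S share was 24.6% and the G2M share 33.3%. With only cells of exactly 1 detected barcode, 85.7% of 7 barcodes were led by cluster 1. The cause of these moves was not tested. An equal draw of 537 could not be made there, since 406 barcoded cells were left. With the first revision of the barcode call the draw gave 151 different barcodes in cluster 1. Clusters 5 and 6 were not recomputed with that call, so their order to cluster 1 is not known there. Added after seeing the data were values without shared cell barcodes, without cells under 5000 UMIs and, for nuclei with barcodes led by cluster 1, with at least 1000 genes, and all 7 stayed inside the interval. No paired analysis was possible because every condition has 1 library and no test was made.

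The limits are few libraries and uneven depth. The spread between cultures is unknown with 1 library per condition, and run cannot be told apart from treatment between runs. Without values per gene, depth was handled only by a common range of UMIs. The 43 UNT cells of the 4 most frequent ERI4 barcodes leave wide intervals, and for 4 barcodes even these are too narrow.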
